A study of Mus musculus with 21 samples.

Results

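The receptors for colony-stimulating factors and the factor Csf1 were described in sorted mouse brain macrophages. The 6 genes Csf1r, Csf1, Csf2ra, Csf2rb, Csf2rb2 and Csf3r were chosen by name, out of 57180 genes in the count table. All 6 were in the table, and all 6 were among the 18867 genes that passed the filter on low counts. RNA-seq was done on 3 kinds of cells. MLC were labelled transplanted monocytes and MG transplanted microglia, both with the genotype Osb-GFP. NoTx were cells of mice without a transplant, with the genotype CX3CR1-CreER+/-; CSF1R fl/fl. Cells were taken 5 days after a seizure induced with kainic acid, a glutamate receptor agonist (batch 1; 6 libraries of MLC, 4 of MG and 3 of NoTx), or after saline (batch 2; 3 of MLC, 3 of MG and 2 of NoTx).

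The labelled batch therefore coincides with treatment, and an effect of one cannot be told apart from the other. In the MLC seizure group, libraries 3 and 6 have "11b" in their names, which the labels do not explain. In these 2 libraries the summed neuron markers were at 49.6 and 51.4 CPM (library-scaled counts) and the astrocyte markers at 108 and 139 CPM, against 0.541 to 11.7 CPM and 3.65 to 45.9 CPM in the other 4. The part of these markers in the results was not tested. The names of the seizure libraries also end in a code (F1, M1, F2 or M2) that recurs between the kinds of cells, M2 in MLC and MG only, and saline names carry none. Genotype and transplantation cannot be told apart in any comparison with NoTx. The labels used here do not say whether NoTx mice received tamoxifen, which activates CreER, nor which sequence is flanked by loxP sites. A count per gene does not separate a recombined from an intact Csf1r transcript, so the Csf1r level does not test recombination. Cell kind also went with Xist, which was above 50 CPM in 7 of 7 MG libraries, in 0 of 9 MLC libraries and in 2 of 5 NoTx libraries, so MLC against MG and Xist status cannot be told apart. Those of NoTx were the seizure libraries coded F1 and F2, at 152 and 297 CPM. NoTx seizure M1 was at 2.28 CPM and the NoTx saline libraries at 0.520 and 0.928 CPM. Xist status thus also differed within NoTx seizure and between NoTx seizure and saline.

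Csf1r is a receptor tyrosine kinase that microglia and other tissue macrophages need for survival, and its ligands are Csf1 and Il34. Csf2ra is the ligand-specific alpha chain of the receptor for GM-CSF, which signals through the shared beta chain Csf2rb. In the mouse, a second beta chain gene, Csf2rb2, serves IL-3. Csf3r, the receptor for G-CSF, is best known for its role in neutrophils. The beta and G-CSF receptors signal through JAK kinases and STAT factors, whereas Csf1r signals through its own kinase domain.

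Depth ranged from 6.57 to 73.8 M counts per library after seizure and from 36.5 to 50.3 M counts after saline. Genes detected ranged from 13074 to 17591 after seizure and from 17893 to 21988 after saline. The summed level of the 7 microglia markers in the table (of 8 listed) was 17193 to 24184 CPM in MLC and 45981 to 74566 CPM in MG after seizure, and 13160 to 26858 CPM in MLC and 56044 to 67136 CPM in MG after saline. In NoTx it was 48507 to 76651 CPM after seizure and 52598 to 61304 CPM after saline. The summed level of 11 neutrophil markers was 2.50 to 18.5 CPM in every MLC and MG library. It was 820 CPM in NoTx seizure library 3 and 1656 CPM in NoTx saline library 2. The other NoTx libraries were at 6.64 and 13.2 CPM after seizure and 70.1 CPM after saline. These sums rest on part of the list. In NoTx after seizure, Ngp, S100a8 and Ltf reached 317, 171 and 171 CPM, whereas Ly6g, Cxcr2 and Mmp8 reached at most 0.138 CPM. After saline, Ngp and Camp reached 888 and 280 CPM, and Elane and Cxcr2 at most 0.546 CPM. Mpo was at 0 in all NoTx libraries, and Elane in those after seizure. Markers of blood monocytes (6 genes) summed to 1.57 to 8.78 CPM in MLC after seizure and 2.86 to 3.96 CPM in MLC after saline. NoTx libraries were at 135 and 1006 CPM after saline. After seizure they were at 26.2, 5.94 and 123 CPM, of which 5.94 lies within the MLC range. In MG the sum was 0.716 to 54.3 CPM after seizure and 7.63 to 19.4 CPM after saline. NoTx seizure library 3 and NoTx saline library 2 bear on results below, and values without them are given there. In these bulk samples, fewer cells of a type and less RNA per cell cannot be told apart.

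The beta chain genes Csf2rb and Csf2rb2 lie on chromosome 15 and are near copies of each other. Their coding sequences, of 2688 and 2634 bases in the GENCODE M21 transcripts of GRCm38, were identical at 95.2% of 2628 aligned positions. Of the 50-base words of Csf2rb2, 26.6% also occur in Csf2rb, and the longest identical run was 242 bases. How reads that fit both genes were counted is not stated, so the split between the pair is uncertain. The stretches shown first are the 120 coding bases with the most differences (22, in capitals), from base 309 in Csf2rb and from base 312 in Csf2rb2. The last line is a 120-base stretch, from coding base 2144, that is the same in both genes, where a read cannot tell them apart.
Csf2rb: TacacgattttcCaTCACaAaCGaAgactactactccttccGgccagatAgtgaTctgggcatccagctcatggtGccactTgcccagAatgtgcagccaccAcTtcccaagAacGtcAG
Csf2rb2: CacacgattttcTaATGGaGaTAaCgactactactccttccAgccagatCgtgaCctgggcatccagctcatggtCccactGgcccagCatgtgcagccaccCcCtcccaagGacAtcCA
Csf2rb and Csf2rb2: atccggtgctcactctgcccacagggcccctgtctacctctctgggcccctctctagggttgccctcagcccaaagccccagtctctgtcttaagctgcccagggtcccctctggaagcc

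Promoter sequences from RefSeq (GRCm38.p6, the 250 bases before the start) were taken for 4 members, Csf1, Csf2ra, Csf2rb2 and Csf3r. Those of Csf1r and Csf2rb were not searched, so no promoter is compared with that of Csf1r. The letters GAGGAA, an ETS-type core like that bound by the macrophage factor PU.1, were searched on both strands. Csf3r, which follows Csf1r across libraries as described below, holds 1 copy, and Csf2ra, which does not, holds 2 copies, shown in capitals.
Csf3r, chr4:126024409-126024658, plus strand: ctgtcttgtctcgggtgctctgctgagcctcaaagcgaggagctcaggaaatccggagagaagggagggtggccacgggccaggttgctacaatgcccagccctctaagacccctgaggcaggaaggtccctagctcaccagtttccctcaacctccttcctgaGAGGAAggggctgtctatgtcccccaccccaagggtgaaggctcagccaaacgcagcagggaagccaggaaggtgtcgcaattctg
Csf2ra, chr19:61228419-61228668, minus strand: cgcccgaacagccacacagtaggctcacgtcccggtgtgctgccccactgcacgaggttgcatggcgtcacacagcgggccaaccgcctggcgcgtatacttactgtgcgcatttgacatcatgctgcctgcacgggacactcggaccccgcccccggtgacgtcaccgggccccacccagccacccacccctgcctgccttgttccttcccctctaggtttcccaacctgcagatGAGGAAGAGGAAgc
Csf2rb2 holds 1 copy on the reverse strand, and the Csf1 window holds none. The letters occur in 23.3% of 32851 promoters of that length, so a match is a description of the sequence only.

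Csf1r was among the most abundant transcripts. It ranked between 6 and 430 of all genes by CPM, with a median rank of 46.0. Csf3r ranked between 153 and 6070, with a median of 747, and Csf2rb between 434 and 2454, with a median of 1039. Per kilobase of exon, Csf1r exceeded Csf3r in all 21 libraries, by 4.41 to 18.7 times. The pseudogene Csf1r-ps took up to 0.0239% as many counts as Csf1r.

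Csf1r, on chromosome 18, was read at 392, 796 and 1994 CPM (lowest, median and highest) in MLC after seizure, and at 2210, 1389 and 7679 CPM in MLC after saline. In MG it was at 2253, 4237, 2508 and 1146 CPM after seizure and at 5929, 5729 and 11794 CPM after saline. In NoTx it was at 1036, 2405 and 8537 CPM after seizure and at 2925 and 745 CPM after saline. Over both treatments together, the floxed cells held neither the lowest nor the highest Csf1r level. Within saline, NoTx had the lowest library (745 CPM) and the lowest group mean (1835 CPM). Within seizure, NoTx had the highest library (8537 CPM) and the highest group mean (3993 CPM). MLC after seizure had the lowest libraries, and single libraries of MLC saline, MG saline and NoTx seizure stood far above the rest of their groups. Between the seizure libraries coded F1 and M1, the F1 library was the lower in each kind of cell, at 1049 and 1994 CPM in MLC, 2253 and 4237 CPM in MG and 1036 and 2405 CPM in NoTx. The MLC library named 11b-M1 was at 1075 CPM. Between the codes F2 and M2 the order was reversed. There the F2 library was the higher, at 542 and 392 CPM in MLC and 2508 and 1146 CPM in MG. NoTx had no M2 library, and its F2 library was the one at 8537 CPM. The MLC library named 11b-F2 was at 494 CPM. In order of the mean, MG saline (7818 ± 3445 CPM, SD, n = 3) came first, then NoTx seizure (3993 ± 3995, n = 3), MLC saline (3759 ± 3419, n = 3), MG seizure (2536 ± 1279, n = 4), NoTx saline (1835 ± 1542, n = 2) and MLC seizure (924 ± 599, n = 6). Each group's mean differed from the next by less than the larger SD of the pair.

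Csf3r gave the same order of groups. It was read at 13.1, 40.4 and 138 CPM (lowest, median and highest) in MLC after seizure, and at 226, 160 and 467 CPM in MLC after saline. In MG it was at 190, 338, 356 and 122 CPM after seizure and at 717, 441 and 777 CPM after saline. NoTx libraries were at 94.8, 241 and 603 CPM after seizure and at 326 and 62.4 CPM after saline. The MLC seizure libraries were the low end, and 5 of these 6 lay below every library of another group. The NoTx group means, 313 ± 261 CPM after seizure (SD, n = 3) and 194 ± 187 CPM after saline (SD, n = 2), came with SDs nearly as large as the means. Neutrophil markers did not follow Csf3r within NoTx saline, where the library with 1656 CPM of these markers had the lower Csf3r level. In NoTx seizure, the library with 820 CPM of them had the highest.

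**Figure D1:**
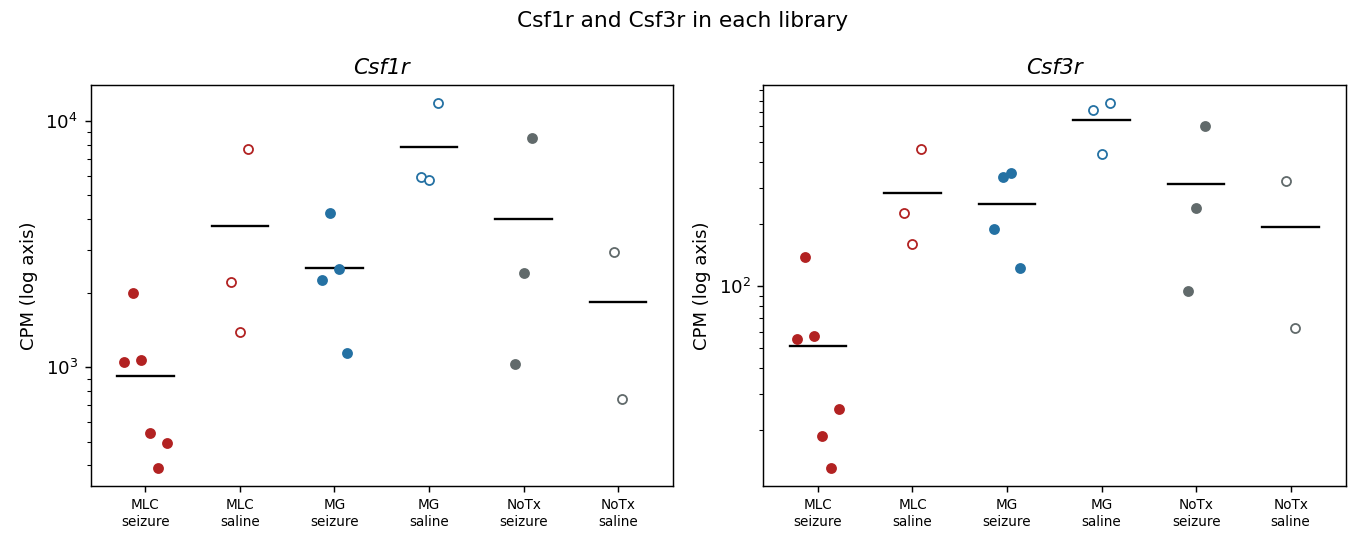
Levels of Csf1r (left) and Csf3r (right) in each library, in CPM on log axes, with groups along the horizontal axis; points are libraries (filled seizure, open saline) and black lines are group means. MLC seizure libraries sit lowest in both panels, with means of 924 CPM for Csf1r and 51.3 CPM for Csf3r, and the 3 NoTx seizure libraries spread from 1036 to 8537 CPM for Csf1r.

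The GM-CSF receptor chains had another order of groups. Csf2ra was read at 26.0, 30.7 and 57.7 CPM (lowest, median and highest) in MLC after seizure, and at 72.6, 45.3 and 28.8 CPM in MLC after saline. In MG it was at 9.82, 12.8, 41.4 and 30.7 CPM after seizure and at 21.8, 8.94 and 17.1 CPM after saline. In NoTx it was at 10.3, 14.8 and 27.4 CPM after seizure and at 15.4 and 7.75 CPM after saline. Both MLC groups had the highest means, 37.8 ± 14.3 CPM after seizure (SD, n = 6) and 48.9 ± 22.1 CPM after saline (SD, n = 3). After saline, every MLC library was above every MG and NoTx library.

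As normalised, Csf2rb varied least between libraries of the 6 members. Its spread without the GC bias of the libraries is not settled, as described below. Csf2rb was read at 156, 176 and 362 CPM (lowest, median and highest) in MLC after seizure, and at 152, 289 and 176 CPM in MLC after saline. In MG it was at 165, 92.6, 120 and 151 CPM after seizure and at 115, 106 and 134 CPM after saline. NoTx libraries were at 106, 79.3 and 125 CPM after seizure and at 122 and 250 CPM after saline. MLC lay above MG and NoTx within each treatment in the means, and without overlap against MG after saline and against NoTx after seizure. NoTx saline library 2, which carried 1656 CPM of neutrophil markers, had the higher Csf2rb value of its group. Whether these markers had a part in it was not tested. Per kilobase, Csf2rb was above Csf2ra in most libraries, with a median ratio of 2.52 and a range of 0.826 to 12.7.

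Csf2rb2, the IL-3 beta chain, was the minor gene of the pair, with 0.117% to 24.8% of the counts of both. It was read at 2.08, 22.8 and 47.3 CPM (lowest, median and highest) in MLC after seizure, and at 12.8, 13.8 and 38.9 CPM in MLC after saline. In MG it was at 24.5, 20.1, 0.133 and 3.81 CPM after seizure and at 38.0, 16.9 and 39.7 CPM after saline. In NoTx it was at 19.3, 21.7 and 17.0 CPM after seizure and at 14.8 and 3.08 CPM after saline. Single libraries reached close to 0, and the groups of MLC and MG overlapped widely. Its share of the pair is subject to the shared sequence shown above. Its adjusted p (edgeR) was between 0.528 and 1.00 in the 9 comparisons of groups.

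Csf1, the ligand of Csf1r, was near the lower limit of what was read in these cells. It was read at 0, 3.45 and 6.60 CPM (lowest, median and highest) in MLC after seizure, and at 0.261, 3.91 and 2.64 CPM in MLC after saline. In MG it was at 8.55, 5.11, 0 and 0.508 CPM after seizure and at 5.01, 6.82 and 7.36 CPM after saline. NoTx libraries were at 0.276, 0.0304 and 11.7 CPM after seizure and at 3.85 and 0.464 CPM after saline. It had 0 counts in 3 of 21 libraries, all after seizure. There a count of 0 allows up to 0.406 CPM in MLC library 5, 0.177 CPM in MLC library 6 and 0.0796 CPM in MG library 3. The highest value, in NoTx seizure library 3, came from the library that also had the highest Csf1r and Csf3r of its group and 820 CPM of neutrophil markers, whose part was not tested. In the 9 comparisons of groups its adjusted p (edgeR) was between 0.906 and 1.00.

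**Figure D2:**
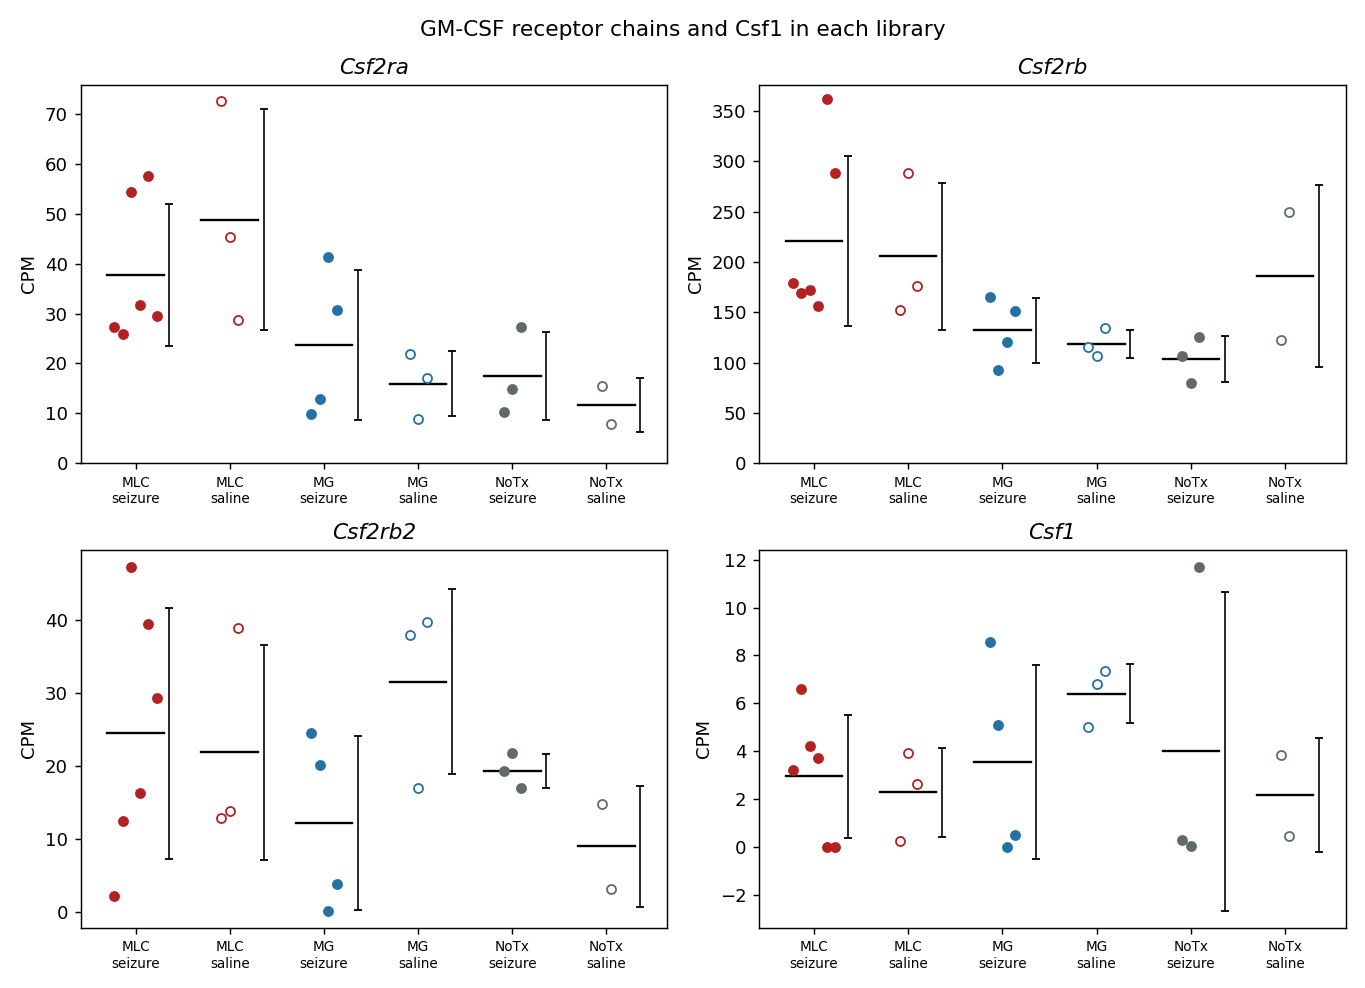
Levels of Csf2ra, Csf2rb, Csf2rb2 and Csf1 in each library, in CPM on linear axes, with groups along the horizontal axis; points are libraries (filled seizure, open saline), black lines group means and side bars 1 SD. Csf2ra and Csf2rb are highest in the MLC groups (means of 37.8 and 221 CPM after seizure, 48.9 and 206 CPM after saline), whereas Csf2rb2 and Csf1 spread down to 0.133 and 0 CPM.

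The comparison of MLC with MG asks how cells of the same genotype but different origin differ. After seizure, Csf3r was lower in MLC than in MG, with a mean of 51.3 ± 46.2 CPM against 252 ± 114 CPM (SD, n = 6 and 4). The log2 fold change was -2.30 (SE 0.59, adjusted p = 0.0208, edgeR), which is 4.91 times lower. Csf3r was 1 of 6 members called (1 lower, 0 higher) where 5.88% of all tested genes were called and 3.37% were called lower. The single overlap came from MLC library 2, at 138 CPM, above the lowest MG library at 122 CPM. Csf1r had a log2 fold change of -1.46 (SE 0.57, adjusted p = 0.123, edgeR), with a 95% interval from -2.66 to -0.25 before adjustment. Csf2rb had a log2 fold change of 0.75 (SE 0.30, adjusted p = 0.134) and Csf2ra of 0.67 (SE 0.49, adjusted p = 0.432, edgeR). Neither value was stable in size: with the GC trend of each library removed they were 1.18 for Csf2rb and 1.15 for Csf2ra, and Csf2ra was at 1.69 without the 3 libraries of low complexity. These 3 were MG libraries 3 and 4 and MLC library 5, set without a stated measure. MG libraries 3 and 4 had 15399 and 15362 genes detected at 47.4 and 34.1 M counts. MG libraries 1 and 2 had 14889 and 15073 genes at 9.19 and 7.64 M counts. No member was without overlap (0 of 6, where 5.41% of all tested genes were). The Csf3r call was lost without MLC library 4 or 6 or MG library 2 or 3, with adjusted p up to 0.0685, and without both libraries named 11b; its log2 fold change stayed between -2.88 and -2.02 when single libraries were left out.

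After saline, 0 of 6 members were called between MLC and MG, where 1.58% of all tested genes were. Csf2ra was highest in MLC in every library, with a log2 fold change of 1.62 (SE 0.62, adjusted p = 0.372, edgeR). Csf2rb had a log2 fold change of 0.80 (SE 0.37, adjusted p = 0.596). Csf1r had -1.06 (SE 0.73, adjusted p = 0.981) and Csf3r -1.18 (SE 0.75, adjusted p = 0.902, edgeR), with overlapping libraries. Csf2ra, Csf2rb and Csf1 did not overlap (3 of 6, where 22.8% of all tested genes did not). Csf1 was lower in every MLC library, and at these counts no fold is given.

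Against NoTx after seizure, MLC had lower Csf1r and Csf3r. Csf1r averaged 924 ± 599 CPM in MLC and 3993 ± 3995 CPM in NoTx (SD, n = 6 and 3), with a log2 fold change of -2.11 (SE 0.60, adjusted p = 0.0395, edgeR). Csf3r averaged 51.3 ± 46.2 CPM in MLC and 313 ± 261 CPM in NoTx, with a log2 fold change of -2.61 (SE 0.62, adjusted p = 0.0121, edgeR). Thus 2 of 6 members were called (2 lower, 0 higher), where 6.16% of all tested genes were called and 3.61% were called lower. Csf2rb went the other way, at 221 ± 84.5 CPM in MLC and 103 ± 23.1 CPM in NoTx, with a log2 fold change of 1.10 (SE 0.34, adjusted p = 0.0558). It was the 1 of 6 members whose libraries did not overlap, where 9.22% of all tested genes did not. Csf2ra had a log2 fold change of 1.11 (SE 0.55, adjusted p = 0.215, edgeR), which became 2.03 with the GC trend removed.

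Both calls rested on NoTx seizure library 3, which had 8537 CPM of Csf1r, 603 CPM of Csf3r and 820 CPM of neutrophil markers. Without it the log2 fold change was -0.90 for Csf1r (adjusted p = 0.428) and -1.71 for Csf3r (adjusted p = 0.168, edgeR). Csf1r also lost its call without any one of MLC libraries 1, 3, 4, 5 and 6 or NoTx library 2, and under RLE scaling, at an adjusted p of 0.0523. Csf2rb passed the threshold without MLC library 2, at an adjusted p of 0.0493, and under RLE scaling, at 0.0433.

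After saline, 0 of 6 members were called between MLC and NoTx, where 1.26% of all tested genes were. Csf2ra was higher in every MLC library (1 of 6 members without overlap, where 33.3% of all tested genes were without), with a log2 fold change of 2.08 (SE 0.73, adjusted p = 0.298, edgeR). Csf1r had a log2 fold change of 1.03 (SE 0.84, adjusted p = 0.987), Csf3r of 0.55 (SE 0.84, adjusted p = 1.00) and Csf2rb of 0.14 (SE 0.42, adjusted p = 1.00, edgeR), which was 0.75 without the library rich in neutrophil markers. Only 2 NoTx libraries entered, 1 of them rich in neutrophil markers. The 95% interval of Csf1r ran from -0.75 to 2.82 and that of Csf3r from -1.24 to 2.34.

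MG and NoTx are both labelled as microglia, of different genotype and with or without transplantation. After seizure, 0 of 6 members were called, where 0.0742% of all tested genes were, and 0 of 6 were without overlap, where 3.86% were. Csf1r averaged 2536 ± 1279 CPM in MG and 3993 ± 3995 CPM in NoTx, with a log2 fold change of -0.65 (SE 0.67, adjusted p = 0.895, edgeR). Csf3r had a log2 fold change of -0.32 (SE 0.69, adjusted p = 1.00). Both signs turned without NoTx library 3, at 0.56 for Csf1r and 0.58 for Csf3r.

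After saline, Csf1r averaged 7818 ± 3445 CPM in MG and 1835 ± 1542 CPM in NoTx (SD, n = 3 and 2), and every MG library was above both NoTx libraries. The log2 fold change was 2.09 (SE 0.88, adjusted p = 1.00, edgeR). Csf3r separated in the same way, with 645 ± 179 CPM in MG and 194 ± 187 CPM in NoTx and a log2 fold change of 1.73 (SE 0.88, adjusted p = 1.00). In all, 4 of 6 members (Csf1r, Csf3r, Csf1 and Csf2rb2) did not overlap, where 36.8% of all tested genes did not, and 0 of 6 were called, where 0.0530% of all tested genes were. Leaving out single libraries gave log2 fold changes of 1.42 to 3.40 for Csf1r and 0.98 to 3.38 for Csf3r. In NoTx saline library 2, Csf1r and Csf3r, which the label does not name as floxed, were both the lower value of the pair.

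Seizure was compared with saline within each kind of cell. In MG, Csf1r averaged 2536 ± 1279 CPM after seizure and 7818 ± 3445 CPM after saline (SD, n = 4 and 3), and every seizure library was lower. Its log2 fold change was -1.62 (SE 0.68, adjusted p = 0.397), and that of Csf3r, also lower in every seizure library, was -1.36 (SE 0.69, adjusted p = 0.442, edgeR). In MG 0 of 6 members were called, where 0.0371% of all tested genes were, and 2 of 6 did not overlap, where 16.0% did not. In MLC, Csf1r averaged 924 ± 599 CPM after seizure and 3759 ± 3419 CPM after saline (SD, n = 6 and 3), a log2 fold change of -2.02 (SE 0.60, adjusted p = 0.304). Csf3r had a log2 fold change of -2.47 (SE 0.62, adjusted p = 0.304, edgeR) and was lower in every seizure library, the 1 of 6 members without overlap, where 6.28% of all tested genes were without. In MLC the count of called genes was 0 by edgeR, among members (0 of 6) and among all tested genes (0%), with 2236 genes at an unadjusted p under 0.05 and 130 called by DESeq2.

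In NoTx the direction was the other way. Csf1r averaged 3993 ± 3995 CPM after seizure and 1835 ± 1542 CPM after saline (SD, n = 3 and 2), a log2 fold change of 1.12 (SE 0.84, adjusted p = 0.966), and Csf3r had one of 0.69 (SE 0.85, adjusted p = 1.00, edgeR). In NoTx 0 of 6 members were called, where 0.106% of all tested genes were, and 1 of 6, Csf2rb2, did not overlap, where 21.2% did not. Without the NoTx libraries rich in neutrophil markers, 1 of each treatment, the log2 fold changes were -0.77 for Csf1r and -0.96 for Csf3r. The difference between the responses was tested itself. For Csf1r it was -3.15 (SE 1.07, adjusted p = 0.589) between MLC and NoTx, -2.75 (SE 1.09, adjusted p = 0.695) between MG and NoTx and -0.40 (adjusted p = 1.00, edgeR) between MLC and MG, in log2 units. For Csf3r it was -3.16 (SE 1.10, adjusted p = 0.589), -2.05 (SE 1.11, adjusted p = 0.708) and -1.12 (adjusted p = 1.00) in the same order of pairs. In these tests 0 of 6 members were called, where 0.0265%, 0.0106% and 0% of all tested genes were.

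**Figure D3:**
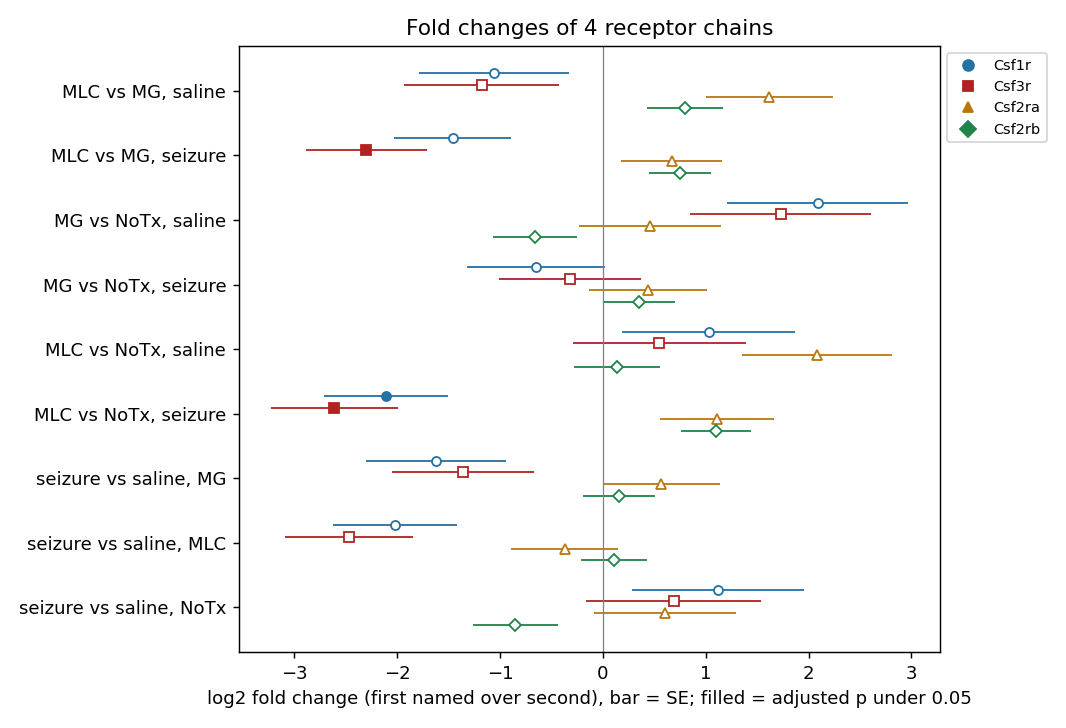
Log2 fold changes of Csf1r, Csf3r, Csf2ra and Csf2rb in the 9 comparisons of groups (rows), the first named group over the second; bars are 1 SE and filled symbols passed an adjusted p of 0.05. The 3 filled symbols are Csf3r in MLC against MG (-2.30), and Csf3r (-2.61) and Csf1r (-2.11) in MLC against NoTx, all after seizure, while Csf2ra and Csf2rb lie to the right of 0 in the 4 comparisons of MLC with another kind of cell (Csf2rb at 0.14 against NoTx after saline, which is -0.17 with the GC trend removed).

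The spread of Csf1r within groups was wide for its level. Its SD of log2 CPM, pooled over the 6 groups, was 1.04, against a median of 0.58 for the 52 tested genes of like level, of which 88.5% had a smaller SD. Csf3r had a pooled SD of 1.08, above 94.8% of 1089 genes of like level. Csf2rb, at 0.44, and Csf2ra, at 0.71, were below the median of their like-level genes, at percentiles 36.4 and 30.9. All these spreads are as normalised and hold the GC bias described below. Csf2rb2, at 1.81, and Csf1, at 2.78, were at percentiles 81.1 and 94.1. Within NoTx, which carry the floxed alleles, Csf1r had an SD of log2 CPM of 1.53 after seizure and 1.40 after saline. These were the highest of the 6 groups, from 3 and 2 libraries. In the groups with no floxed allele in the label, Csf1r had 1.28 in MLC after saline and 0.89 in MLC after seizure. In MG it had 0.78 after seizure and 0.59 after saline. Csf3r had 1.33 in NoTx after seizure and 1.69 in NoTx after saline. The part of the floxed alleles in the spread was not tested.

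Csf1r and Csf3r moved together within groups. In 19 of 21 libraries both lay on the same side of their group means, whereas Csf1r and Csf2rb did so in 7 of 21 libraries and Csf1r and Csf2ra in 13 of 21. Deviations within a group sum to 0, so the 21 libraries are not independent here, and the NoTx saline libraries mirror each other. How often other genes lay on the side of Csf1r was not counted. The counts given describe libraries that share depth, amplification and base composition. Their GC bias differed: the slope of log2 CPM on GC content, per 10 percentage points, ran from -1.43 to 0.10 in MLC seizure, -0.56 to 0.52 in MG seizure, -0.43 to 0.74 in NoTx seizure, -0.06 to 0.57 in MLC saline, 0.41 to 0.91 in MG saline and -0.40 to 0.14 in NoTx saline. The library with the lowest slope, MLC seizure 5, had the lowest Csf1r and Csf3r of all, and the library with the highest slope, MG saline 3, had the highest of both. Csf2rb, of like GC content (53.9%, against 54.5% for Csf1r and 54.2% for Csf3r), had its highest value of all in MLC seizure 5, 362 CPM. Csf2ra had the highest value of its group there, 57.7 CPM. In MG saline 3, Csf2rb was at 134 CPM, the highest of its group, and Csf2ra at 17.1 CPM. The part of GC bias in these levels was not tested. The members have GC contents of 53.3% to 57.8%, above 74.2% to 92.5% of tested genes.

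For the spread, each library's GC trend was subtracted again after it had already entered the scaling, so the values overcorrect. The pooled SD came to 0.57 for Csf1r, 0.61 for Csf3r, 0.97 for Csf2rb and 1.27 for Csf2ra. These values do not show what the spread is without GC bias. The fits of fold changes took the trend out through the scaling alone. In those fits the calls of Csf1r and Csf3r were also made. In MLC against NoTx after seizure, the log2 fold change was -1.60 for Csf1r (adjusted p = 0.0354) and -2.23 for Csf3r (adjusted p = 0.00508, edgeR). In MLC against MG after seizure, that of Csf3r was -2.12 (adjusted p = 0.00491), and Csf2rb passed in MLC against NoTx, with 1.64 (adjusted p = 0.0443, edgeR). Over all alternatives run, the adjusted p in MLC against NoTx after seizure ranged from 0.0162 to 0.428 for Csf1r (under 0.05 in 4 of 19), from 0.00181 to 0.168 for Csf3r (13 of 19) and from 0.00677 to 0.278 for Csf2rb (5 of 20). That of Csf3r in MLC against MG after seizure ranged from 0.00302 to 0.108, with 11 of 19 alternatives under 0.05.

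**Figure D4:**
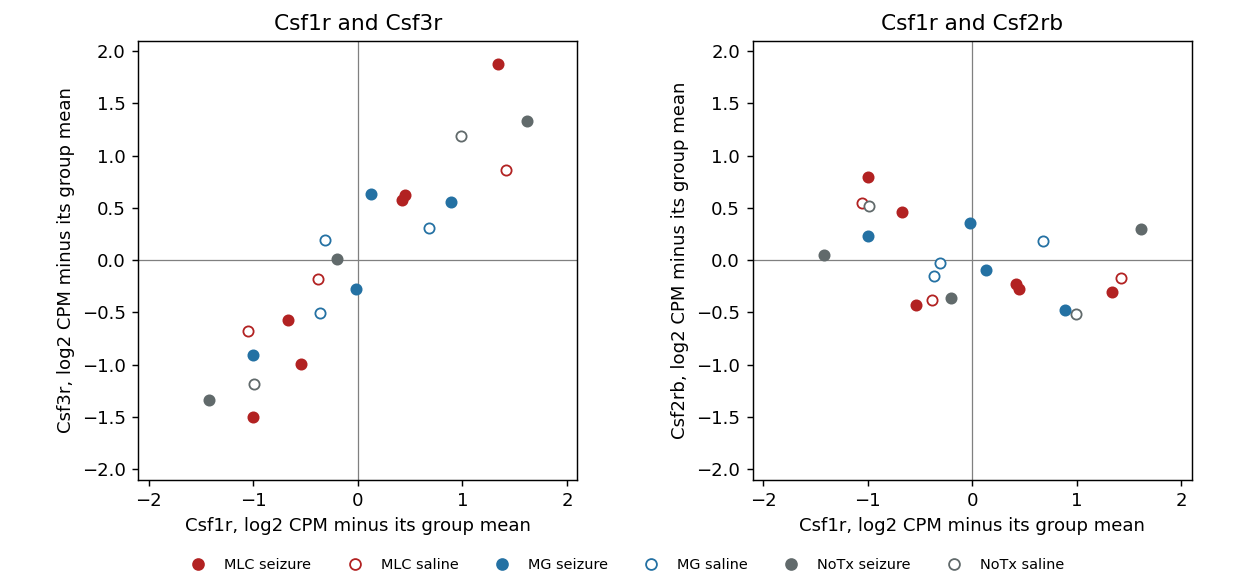
Deviation of each library from its group mean, in log2 CPM, for Csf1r (horizontal axes) against Csf3r (left) and Csf2rb (right); points are libraries, filled after seizure and open after saline. Csf1r and Csf3r share a sign in 19 of 21 libraries, and Csf1r and Csf2rb in 7 of 21.

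**Figure D5:**
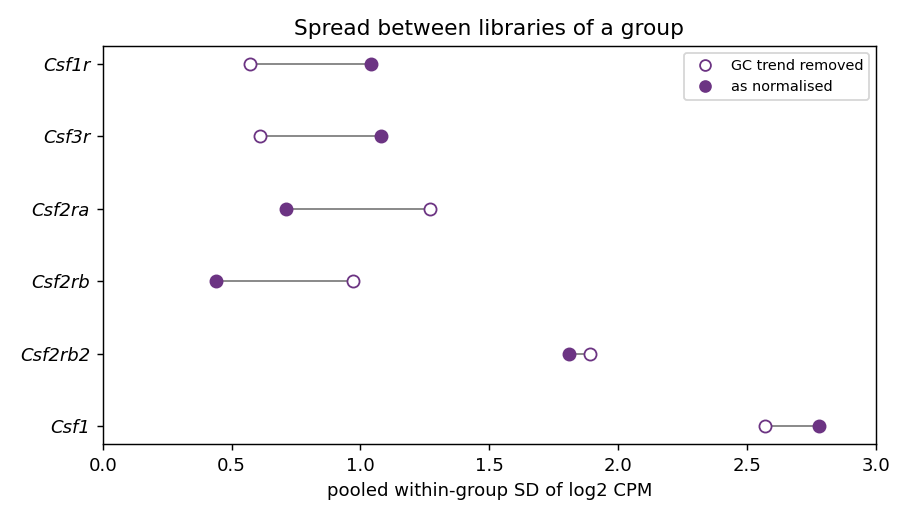
Pooled within-group SD of log2 CPM for each member, as normalised (filled) and with the GC trend of each library subtracted (open). The open values overcorrect, since the trend had already entered the scaling. They are 0.57 for Csf1r (filled 1.04), 0.61 for Csf3r (filled 1.08), 1.27 for Csf2ra and 0.97 for Csf2rb.

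Profiles over the 21 libraries were compared by the root mean square difference of centred log2 CPM, among 6856 tested genes whose log2 CPM averaged 4 or more. The nearest to Csf1r were Slco2b1, an organic anion transporter (0.31), Pnpla7 (0.35), Fgd2 (0.36), Arhgap22 (0.37) and Nfam1 (0.38). Csf3r was at 0.55 from Csf1r, rank 33 of the candidates, whereas Csf2rb was at 1.77, Csf2ra at 1.83, Csf2rb2 at 2.09 and Csf1 at 2.13. The nearest to Csf3r were the microglia marker Tmem119 (0.43), Slc25a45 (0.50) and Abi3 (0.52). Those nearest to Csf2ra were Pilra (0.55), Tnfaip8 (0.56) and 5031425E22Rik (0.58), and to Csf2rb Ireb2 (0.34), Rps6kb1 (0.38) and Atp2b1 (0.38). No gene came close to the sparse members: the nearest to Csf2rb2 was Elac1, at 0.92, and the nearest to Csf1 was Pdxk, at 1.57.

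Other ligands of these receptors were almost not read. Il34, the other ligand of Csf1r, had 46 counts in 2 of 21 libraries, 44 of them in 1 MLC seizure library. Csf2 had 2 counts in 1 library and Csf3 had 15 counts in 6 libraries, all after saline, while Il3 and Il5 had 0. None of these 5 was tested. Related receptor kinases were also low, with group means of up to 0.874 CPM for Kit, 1.31 CPM for Flt3, 2.75 CPM for Pdgfra and 2.35 CPM for Pdgfrb. The highest Pdgfra and Pdgfrb means were both in NoTx.

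Of 52 listed genes of the pathway (ligands, other alpha chains, related kinases, signalling and attenuation of Csf1r, the JAK-STAT arm and factors acting on the Csf1r locus), 46 were tested. After seizure in MLC against MG, 2 were called higher and 1 lower, 3 in all, where 5.88% of all tested genes were called, with a median log2 fold change of -0.37 over the list and 0.00 over all tested genes. Gab3, an adaptor recruited downstream of Csf1r, averaged 166 ± 85.0 CPM in MLC and 17.4 ± 8.41 CPM in MG, a log2 fold change of 3.25 (SE 0.51, adjusted p = 2.1e-04). Pim1, a kinase gene induced by STAT5, averaged 38.3 ± 37.4 CPM in MLC and 4.65 ± 1.82 CPM in MG, with a change of 3.04 in log2 (SE 0.79, adjusted p = 0.0236). Plcg2, a phospholipase of immune receptor signalling, averaged 47.7 ± 17.9 CPM in MLC and 136 ± 35.8 CPM in MG, with a change of -1.51 in log2 (SE 0.42, adjusted p = 0.0335, edgeR). Gab3 passed the test with each library left out in turn, with log2 fold changes of 3.04 to 3.57. Plcg2 lost its call without any one of MLC libraries 3 to 6 or MG libraries 2 to 4, with adjusted p up to 0.0787. Its adjusted p (edgeR) was also above the threshold under RLE scaling (0.0777), with the GC trend removed (0.0640), without the 11b libraries (0.127), without the 3 libraries of low complexity (0.315, at -1.11) and with only the groups compared (0.0505). Pim1 lost its call without the libraries of low complexity (2.45, adjusted p = 0.210) and without MLC library 5 or 6 or MG library 2, 3 or 4, with adjusted p up to 0.0629.

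In MLC against NoTx after seizure, 2 of the 46 were called, both higher, where 6.16% of all tested genes were called, with a list median of -0.33 against 0.00 over all tested genes. Gab3 averaged 166 ± 85.0 CPM in MLC and 39.9 ± 29.1 CPM in NoTx (log2 fold change 2.06, SE 0.54, adjusted p = 0.0231). Pim1 averaged 38.3 ± 37.4 CPM in MLC and 1.91 ± 0.648 CPM in NoTx (log2 fold change 4.33, SE 0.97, adjusted p = 0.00775, edgeR). The Gab3 call was lost without NoTx library 2 or 3, with adjusted p up to 0.109, without the libraries rich in neutrophil markers (1.62, adjusted p = 0.140) and with only the groups compared (adjusted p = 0.0585). The Pim1 call was lost without NoTx library 2, at 0.0506, and without the neutrophil-rich libraries, at 0.0542. After saline, 1 of 46 was called in MLC against MG, where 1.58% of all tested genes were, again Gab3, at 138, 80.2 and 93.0 CPM in MLC and at 28.8, 22.0 and 12.2 CPM in MG. The groups did not overlap, and the change was 2.31 in log2 (SE 0.58, adjusted p = 0.0438, edgeR). That call was lost when any one of the 6 libraries was left out, with adjusted p of 0.0670 to 0.250, and without the 11b libraries, at 0.0620. The list median there was -0.31, against 0.00 over all tested genes. In the other 9 comparisons, the tests of responses included, 0 of the 46 were called.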

How the data were processed

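RNA-seq of 21 libraries of sorted mouse brain cells was analysed from a table of estimated counts, which the authors deposited. These were rounded first, since 23.9% to 37.5% of a library's values above 0 lay more than 0.0015 from a whole number. No source used here names the step that gave fractions. Per the submitters' processing notes, Trim Galore 0.6.7, STAR 2.7.10a, featureCounts and the mouse build GRCm39 were used. Per the labels' protocols, a low-input library kit was used, and no molecular identifiers are named, so a limit set by a count of 0 covers counting error only.

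All libraries entered 1 edgeR 4.0.16 quasi-likelihood fit in R 4.3.3, with TMM scaling, robust dispersion and 6 group means. Of 57180 genes, 18867 passed edgeR's filter on low counts and were tested. Within each comparison, the Benjamini-Hochberg method was applied over all tested genes. Standard errors (SE) were taken as the size of the change divided by the square root of edgeR's F statistic, and 95% intervals use 15 degrees of freedom. CPM are the usual library-scaled counts, after TMM. CPM per kilobase uses exon lengths from the GENCODE M21 annotation of GRCm38, which is not the build that was counted. GC content came from the same annotation and covered 95.4% of tested genes. The steps were tested on simulated data. DESeq2 1.42.0, RLE scaling, no low-count filter, the replicate number as a block, removal of the GC trend, a fit of only the groups compared and fits with libraries left out were alternatives. Leaving out the libraries rich in neutrophil markers and taking the code in the seizure library names as a block were added after the data were seen.

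The members, the gene lists and the tests were chosen with earlier results of these data known. The text names all 6 members, the ligands, the pathway genes that passed the test, and the genes with the nearest profiles (5 for Csf1r and 3 for each other member) among tested genes whose log2 CPM averaged 4 or more. The labels call the samples biological replicates. Whether the 2 MLC seizure libraries with "11b" in their names came from animals that also gave another library is not stated.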

Additional observations from a re-analysis of the deposited data

Results flagged for a closer look

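Csf3r in MLC after seizure had 1 library far from the others. Library 2 had 138 CPM, while the other 5 libraries had 13.1 to 57.4 CPM, and its gap to the nearest of them was 0.644 of the whole range. On the log2 scale the library was at 7.10, the next at 5.84 and the lowest at 3.72, a gap of 0.372 of the range, and there it did not stand apart by the same measure. Such a gap is met by chance in about 1 of 20 groups, and 12 pairs of a member and a group were looked at. The library also had the highest GC slope of its group, at 0.10, whose part was not tested.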

How the results depend on the processing

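Members called in MLC against MG after seizure (1) became 0 with no low-count filter, without the 2 libraries named 11b and without the 3 libraries of low complexity, 2 with DESeq2 (Csf3r and Csf2rb), and 0 to 1 with single libraries left out. Those called in MLC against NoTx after seizure (2) became 1 with no low-count filter (Csf2rb) or without the 3 libraries of low complexity, 0 without the 11b libraries, 0 without the libraries rich in neutrophil markers, 0 with only the groups compared, 3 with the GC trend removed, 3 with DESeq2 (Csf1r 0.0233, Csf3r 0.00322 and Csf2rb 0.00677, adjusted p), and 0 to 3 with single libraries left out. DESeq2 called 1 member, Csf2ra, in MLC against NoTx after saline, in place of 0. The cause was not tested, except that the fits without libraries hold fewer samples. In the other 9 comparisons no member was called under the alternatives run. Of the pathway genes, the 3 called in MLC against MG after seizure became 1 under the replicate block or without the 3 libraries of low complexity and 5 with the code block described below. The 2 called in MLC against NoTx after seizure became 1 under the replicate block or with only the groups compared and 0 without the libraries rich in neutrophil markers. The 1 called in MLC against MG after saline became 0 without the 11b libraries, 2 with DESeq2 and 3 with only the groups compared.

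Signs turned in comparisons with wide error. Without the libraries rich in neutrophil markers, Csf1r was at 0.56 and Csf3r at 0.58 in MG against NoTx after seizure, Csf1r at -0.77 and Csf3r at -0.96 in NoTx seizure against saline, and Csf3r at -0.20 in MLC against NoTx after saline. Csf2rb in that last comparison was at -0.17 with the GC trend removed, and at -0.28 to 0.74 with single libraries left out. Leaving out single libraries gave Csf1r -1.11 to 0.56 and Csf3r -0.75 to 0.58 in MG against NoTx after seizure, Csf1r -0.09 to 2.42 and Csf3r -0.21 to 2.33 in NoTx seizure against saline, Csf1r -0.00091 to 2.33 and Csf3r -0.20 to 2.19 in MLC against NoTx after saline, and Csf1r -0.80 to 0.67 in the difference of the MLC and MG responses.

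Same-numbered samples deviated together, with r over 0.1, in 4 of 25 pairs. With so few libraries per group, such correlations cannot tell whether the replicate numbers pair the samples. With the replicate number as a block, 0 members were called in MLC against MG after seizure (Csf3r -1.96, adjusted p = 0.0504) and 0 in MLC against NoTx after seizure. The block gave signs opposite to the fit without it for Csf1r (0.03) and Csf3r (0.21) in MG against NoTx after seizure, and for Csf1r (0.14) in the difference of the MLC and MG responses. In MLC against MG after seizure it gave Csf2rb 0.35, Pim1 1.67 (adjusted p = 0.214) and Plcg2 an adjusted p of 0.163, and in MLC against NoTx after seizure Csf2rb 0.70 and Gab3 1.72 (adjusted p = 0.111). Same-coded seizure libraries (F1, M1, F2, M2) of different kinds of cells had r over 0.1 in 2 of 14 pairs. Both were MLC with MG, at 0.13 for M1 and 0.16 for M2. Whether the codes pair the libraries cannot be told from these correlations either. With the code as a block, chosen after seeing the data, Csf3r kept both calls, Csf1r in MLC against NoTx lost its own (-1.99, adjusted p = 0.0761, leaving 1 member), and Csf3r in MG against NoTx turned to 0.04.

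Under RLE scaling, the median over all tested genes became 0.12 (log2) in MLC against MG and 0.13 in MLC against NoTx after seizure. The share of calls that were higher was then 53.3% and 49.8%, against 42.7% and 41.4% with TMM. Group means of the 6 members in CPM moved by less than their SD under RLE or total-count scaling.

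With the GC trend subtracted in a way that overcorrects, as described above, the pooled SD within groups changed for Csf1r (0.57), Csf3r (0.61), Csf2ra (1.27) and Csf2rb (0.97). That of Csf1 was 3.47 with a smaller prior count. That of Csf2rb2 was 1.18 without the 3 libraries of low complexity and 1.28 to 1.88 with single libraries left out, lowest without MG seizure library 3. Depth limits Csf1 and Csf2rb2, which had as few as 0 and 5 counts in a library.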
